A study of Rattus norvegicus with 12 samples.

Results

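The change over time in untreated primary rat hepatocytes was described by setting 3 arrays of cells incubated for 6 h against 3 arrays of cells incubated for 3 h. The 6 arrays were those whose titles name untreated control cells, of 12 arrays in the series, and arrays that carry the same replicate number were treated as pairs, which gave 3 pairs. All 31042 probe sets other than the array's own control probe sets were tested. Hepatocytes of Wistar rats had been freed from liver with collagenase, purified on Percoll and left until the day after isolation, so the 3 h and 6 h are counted from the start of the incubation and not from isolation. By the labels, the 6 h group differs from the 3 h group by 3 h of further incubation, with no agent added to either; effects of the time of day or of handling at each harvest cannot be told apart from it. The other 6 arrays, 3 at each time, are cells of the same source given rat interferon alpha at 250 U/ml, and they serve here as a parallel culture over the same interval. The age and sex of the animals, the number of animals per preparation, the medium and its hormones, and whether medium was renewed at time 0 are not given in the sources used here.

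Hepatocytes make most plasma proteins, bile acids and cholesterol, dispose of amino acid nitrogen as urea, and take up, modify and export drugs and hormones. Once they are taken out of the liver they lose hormonal rhythms, blood flow, bile drainage and contact with other liver cells, and liver functions in primary culture are known to decline over days. The short interval studied here shows which transcripts move within hours, at a stage when the major liver transcripts are still abundant.

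Array medians over the whole series ran from 5.16 to 5.21 log2, and actin signal at the 3' end exceeded that at the 5' end, a sign of RNA quality, by 0.583 to 0.785. The range was 0.583 to 0.684 in the 3 h and 0.608 to 0.739 in the 6 h control arrays. All 12 hepatocyte markers measured, among them Alb, Ttr, Cps1, Hnf4a and Asgr1, lay above the upper quartile of every control array. Markers of Kupffer cells and macrophages had a summary level (mean over 18 markers) of 5.32 to 6.43 at 3 h and 5.34 to 6.34 at 6 h. The corresponding ranges at 3 h and 6 h were 4.28 to 4.75 and 4.35 to 4.70 for 17 liver endothelial markers, 4.49 to 4.91 and 4.53 to 4.87 for 22 stellate cell and fibroblast markers, and 5.97 to 6.21 and 5.96 to 6.21 for 14 cholangiocyte markers. They were 4.16 to 4.33 and 4.28 to 4.35 for 20 lymphocyte and NK cell markers, 4.22 to 5.11 and 4.19 to 5.08 for 9 neutrophil markers, and 5.42 to 5.65 and 5.52 to 5.66 for 10 erythroid markers. The ranges at 3 h and 6 h thus overlapped for all 7 cell types. These ranges ignore the pairing and do not show whether levels shifted within pairs. The median fitted change of a marker list ran from -0.04 (Kupffer cells and macrophages) to 0.12 (erythroid cells). Of these markers, C1qc, Anxa4 and Gzmb passed the test between times, as described further on. An array reads RNA from the whole culture, so fewer cells of a type and less RNA per cell cannot be told apart.

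Between 3 h and 6 h, 2529 of the 31042 probe sets (8.15%) passed the test at an adjusted p under 0.05, 1033 higher (3.33%) and 1496 lower (4.82%). The test was limma with the replicate number as a block, fitted to all 12 arrays, with Benjamini-Hochberg adjustment over all 31042 probe sets. Most changes were small: the median size of a called change was 0.44 on the log2 scale, where 1.00 is a 2-fold difference, and only 23 called probe sets rose and 31 fell by 2-fold or more. All 2529 moved in the same direction in all 3 pairs, as did 20.6% (up) and 20.2% (down) of all probe sets. Levels of the 2 times did not overlap for 643 of the 1033 higher and 781 of the 1496 lower probe sets, while over all probe sets 7.82% lay wholly above and 6.3% wholly below (6.98% and 7.46% of genes). The calls were made on these same pairs, which favours both traits, so neither count is separate support for the calls. The calls rest on the pairing. With no replicate block only 59 probe sets were called (28 higher and 31 lower), and with the 6 control arrays alone, still paired, 1109 were called. Leaving out control 3 h replicate 1, 2 or 3 gave 1280, 1440 or 1185 calls and leaving out control 6 h replicate 1, 2 or 3 gave 920, 1423 or 1254.

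For the account of functions, 1 probe set stood for each gene, that with the highest mean level over the 12 arrays, which gave 14217 genes. Of these, 507 were higher (3.57%) and 884 lower (6.22%) at 6 h, and the median change over all genes was -0.0018. Bright probe sets were called more often: 15.8% of the 5523 genes above the upper quartile of levels passed, 6.05% higher and 9.76% lower. Shares given for gene groups are to be read against both backgrounds. Values are given as log2 levels in the order of replicates 1, 2 and 3, and changes as the fitted log2 difference of 6 h minus 3 h ± its SE. With no replicate block every gene group described here had 0 or 1 gene called in each direction.

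**Figure D1:**
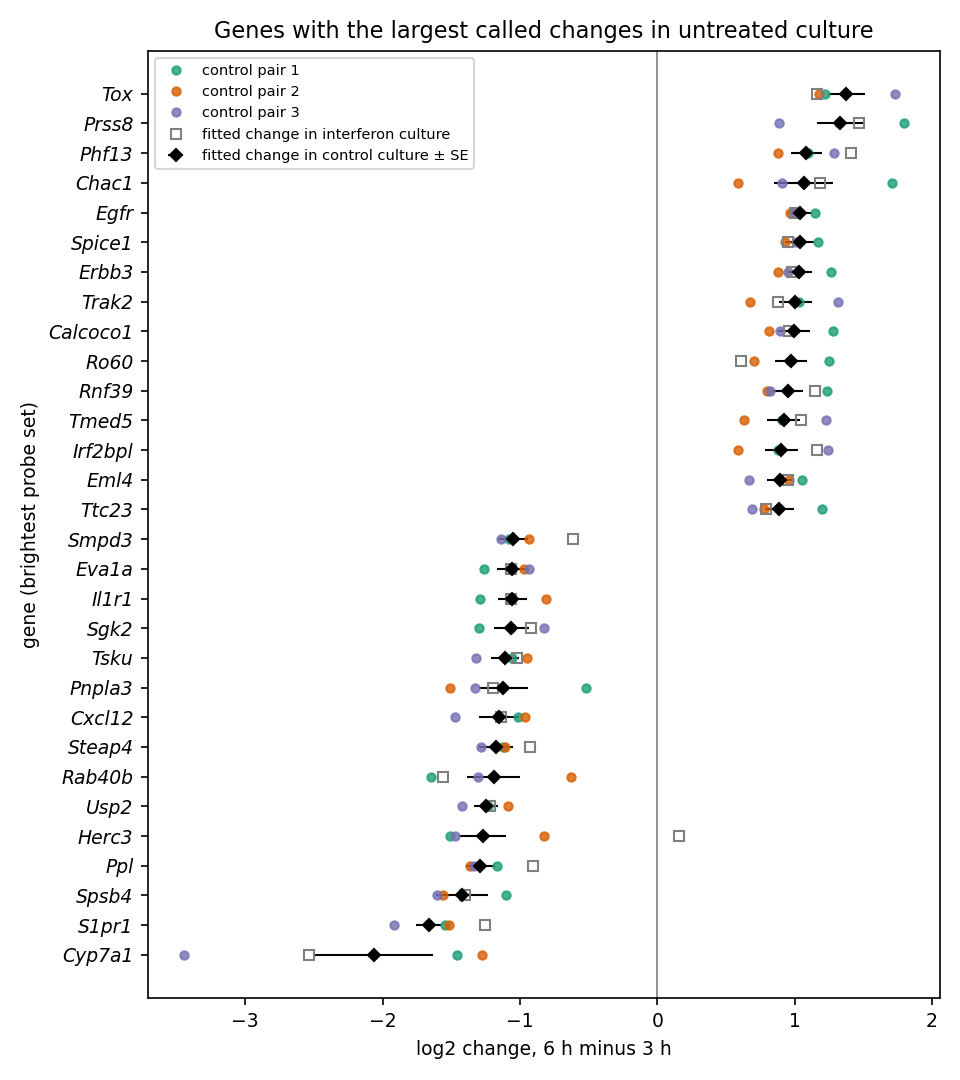
Log2 change from 3 h to 6 h (x axis) for the 15 genes with the largest called rise and the 15 with the largest called fall in untreated culture (y axis). Black diamonds are the fitted changes with their SE, coloured circles the 3 pair differences and grey open squares the fitted changes in interferon-treated culture; the changes run from -2.06 for Cyp7a1 to 1.38 for Tox, and Herc3 is the gene whose square (0.15) lies far from its diamond (-1.27).

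The largest rises included receptors of growth factors. Egfr, the receptor of epidermal growth factor and a main route by which growth signals reach hepatocytes, had levels of 9.28, 9.14 and 8.59 at 3 h and 10.43, 10.11 and 9.58 at 6 h. Every 6 h array was above every 3 h array, and the change was 1.04 ± 0.09 (SE; adjusted p = 0.000323), a 2.05-fold rise. Of the 3 probe sets of Egfr 2 were called higher, and the other had a change of -0.24 and was not called. Erbb3, a partner receptor of the same family, had levels of 8.29, 8.83 and 8.46 at 3 h and 9.55, 9.71 and 9.41 at 6 h, again without overlap. Erbb3 changed by 1.03 ± 0.09 (SE; adjusted p = 0.000578). Tox, a DNA-binding protein of the HMG-box family, showed the largest rise of any named gene on its brightest probe set, 1.38 ± 0.13 (SE; adjusted p = 0.000776). Its levels of 5.29, 6.51 and 7.29 at 3 h and 6.51, 7.69 and 9.02 at 6 h overlapped between times because the 3 replicates started far apart, yet each rose by more than 1 log2 unit, by 1.22, 1.18 and 1.73. Prss8, the membrane-anchored serine protease prostasin, also overlapped between times, with levels of 8.57, 8.95 and 10.59 at 3 h and 10.37, 10.27 and 11.47 at 6 h. Prss8 changed by 1.33 ± 0.17 (SE; adjusted p = 0.00193). Phf13, a reader of histone methylation, changed by 1.09 ± 0.11, Trak2, an adaptor for mitochondrial transport, by 1.00 ± 0.12, Calcoco1, a coactivator and autophagy receptor, by 0.99 ± 0.12, and Ro60, an RNA-binding autoantigen, by 0.97 ± 0.11. Spice1, a centriole protein, Rnf39, Tmed5, a cargo receptor of the early secretory pathway, Irf2bpl, Eml4, a microtubule-binding protein, and Ttc23 completed the 15 largest rises together with Chac1, with changes of 0.89 to 1.07. Apart from Chac1, these genes kept their call with any 1 array left out. The other probe set of Tox had a change of 0.25 and was not called.

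The largest falls included surface receptors, a chemokine and ubiquitin ligase genes. S1pr1, a receptor for sphingosine 1-phosphate, had levels of 9.48, 9.70 and 8.13 at 3 h and 7.94, 8.18 and 6.21 at 6 h. Replicate 3 was lower than the others at both times, so the groups overlapped, but the pair differences of -1.54, -1.52 and -1.92 were alike and the change was -1.66 ± 0.09 (SE; adjusted p = 2.51e-05), a 3.16-fold fall. The other probe set of S1pr1 had a change of 0.05 and was not called. Il1r1, the receptor through which interleukin 1 starts the acute phase response, had levels of 9.70, 8.81 and 8.52 at 3 h and 8.41, 8.00 and 7.46 at 6 h, without overlap. Il1r1 changed by -1.06 ± 0.10 (SE; adjusted p = 0.000776). Cxcl12, a chemokine, had levels of 8.58, 8.02 and 7.56 at 3 h and 7.56, 7.05 and 6.09 at 6 h, the lowest 3 h array and the highest 6 h array being nearly equal. Cxcl12 changed by -1.15 ± 0.14 (SE; adjusted p = 0.00164). Steap4, a metalloreductase that responds to inflammation, was much higher in replicate 1 than in the others, with levels of 10.84, 8.13 and 7.91 at 3 h and 9.72, 7.02 and 6.62 at 6 h, and fell in each pair. Steap4 changed by -1.17 ± 0.12 (SE; adjusted p = 0.000876). Smpd3, a neutral sphingomyelinase, changed by -1.05 ± 0.11, Tsku, a secreted protein of hepatocytes, by -1.11 ± 0.10, Sgk2, a kinase, by -1.06 ± 0.13, and Eva1a, a regulator of autophagy, by -1.06 ± 0.11. Spsb4 and Rab40b, both substrate adaptors of ubiquitin ligases, changed by -1.42 ± 0.19 and -1.19 ± 0.19, Ppl, the junction protein periplakin, by -1.29 ± 0.10, and Herc3, a ubiquitin ligase, by -1.27 ± 0.17. All of these kept their call with any 1 array left out. Herc3 and Rab40b each had a further probe set that was not called, with changes of -0.14 and -0.06. Of the 3 probe sets of Cxcl12, 1 was called lower, and their changes ran from -1.15 to -0.08.

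**Figure D2:**
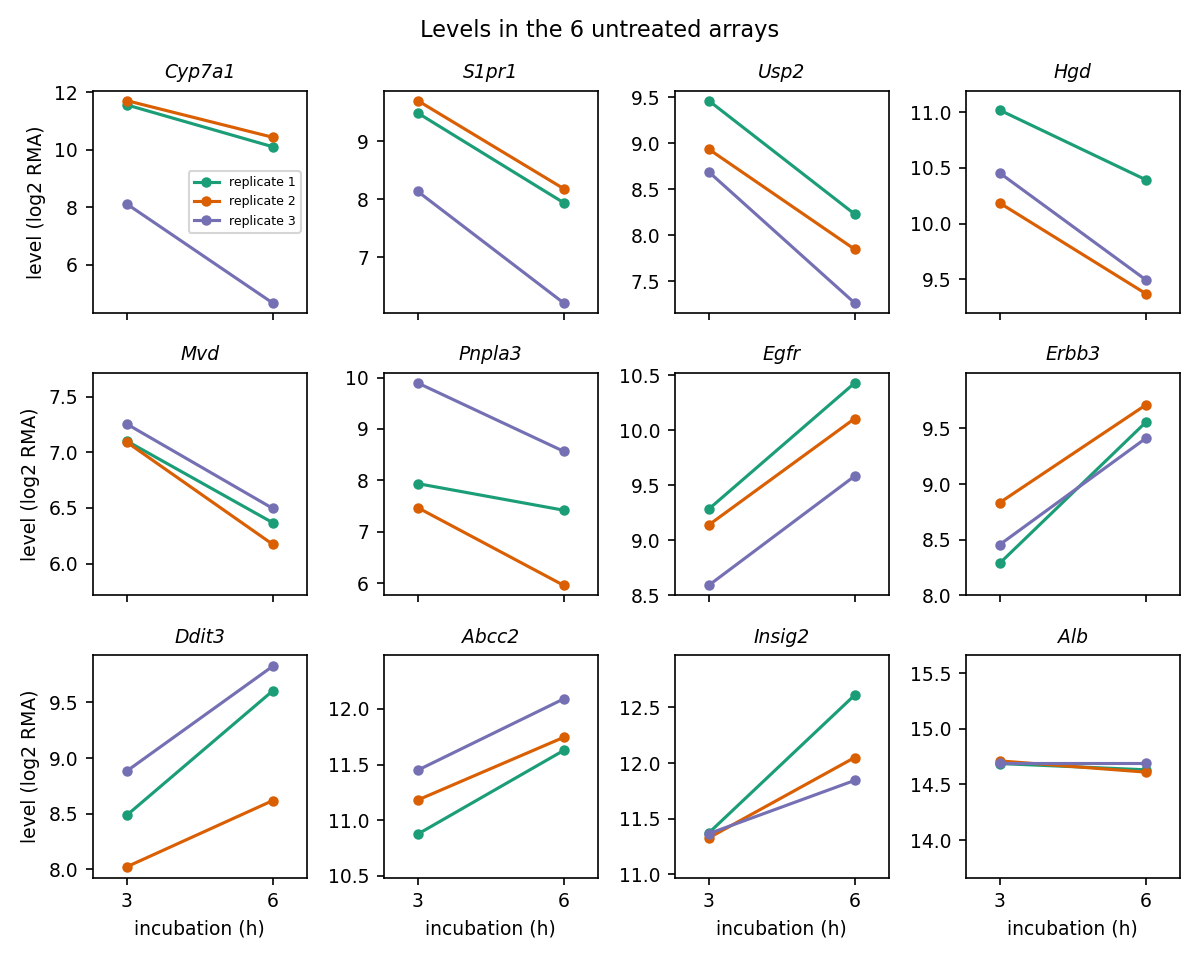
Level in log2 (y axis) against incubation time in hours (x axis) for 12 genes in the 6 untreated arrays, with 1 line for each replicate number. For the 11 called genes the 3 lines slope the same way even where the replicates lie far apart, as for Cyp7a1, S1pr1 and Pnpla3, and Alb stays between 14.61 and 14.71 in every array.

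Of 26 genes of bile acid synthesis and its control, 3 were called lower (11.5%, near the 9.76% of bright genes) and 0 higher. Cyp7a1, the rate-limiting enzyme of bile acid synthesis from cholesterol, had levels of 11.57, 11.71 and 8.12 at 3 h and 10.11, 10.44 and 4.68 at 6 h. The pair differences were -1.46, -1.28 and -3.45, so that replicate 3 started lowest and fell furthest, and the groups overlapped. The change was -2.06 ± 0.43 (SE; adjusted p = 0.0156), a 4.17-fold fall and the largest among genes on their brightest probe set. Cyp7a1 did not pass without control 3 h replicate 3 or control 6 h replicate 1 or 3 (adjusted p = 0.0544 to 0.0715). Acox2, a peroxisomal oxidase that shortens the bile acid side chain, had levels of 10.36, 9.60 and 10.39 at 3 h and 10.02, 8.87 and 9.93 at 6 h. Acox2 changed by -0.51 ± 0.09 (SE; adjusted p = 0.00602). Amacr, which works beside Acox2, was the third called lower (-0.29 ± 0.07). Amacr did not pass without control 3 h replicate 1, 2 or 3, control 6 h replicate 1, 2 or 3 or interferon 3 h replicate 3 (adjusted p = 0.0536 to 0.156). With 1 array left out the count lower ranged from 1 to 5, with 1 for control 3 h replicate 3 and control 6 h replicates 1 and 3, 2 for the other 3 control arrays and interferon 3 h replicate 3, and 5 for interferon 6 h replicate 1. The median change of the 26 genes was -0.06. Cyp8b1, the sterol 12-alpha-hydroxylase, and Cyp27a1, the mitochondrial sterol 27-hydroxylase, did not pass, with changes of 0.16 ± 0.15 and 0.11 ± 0.07. Nr1h4, the bile acid receptor FXR, had a change of -0.52 ± 0.17 (SE; adjusted p = 0.0889); these 3 were chosen after their values were seen.

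Cholesterol synthesis had the highest share of lower genes of all groups. Of 22 genes of cholesterol synthesis and uptake measured, 10 were called lower (45.5%) and 1 higher, against 6.22% and 3.57% over all genes, and the median change was -0.24. Mvd, which makes isopentenyl diphosphate from diphosphomevalonate, had levels of 7.10, 7.09 and 7.25 at 3 h and 6.37, 6.17 and 6.50 at 6 h. All 6 h arrays were below all 3 h arrays, with a change of -0.80 ± 0.09 (SE; adjusted p = 0.00101). Msmo1, a methylsterol oxidase, had levels of 10.52, 10.82 and 10.94 at 3 h and 9.77, 9.97 and 10.27 at 6 h and likewise did not overlap. Msmo1 changed by -0.76 ± 0.10 (SE; adjusted p = 0.00259). Hsd17b7, a ketosteroid reductase of the late pathway, changed by -0.62 ± 0.09, Idi1, the isopentenyl diphosphate isomerase, by -0.68 ± 0.11, and Acat2, the thiolase that makes acetoacetyl-CoA, by -0.71 ± 0.12. Insig2, a protein of the endoplasmic reticulum that holds back the activation of sterol regulatory factors, went the other way, with levels of 11.37, 11.33 and 11.37 at 3 h and 12.61, 12.05 and 11.84 at 6 h. Insig2 changed by 0.81 ± 0.15 (SE; adjusted p = 0.00922). Its call was lost without control 6 h replicate 1 (adjusted p = 0.055). The related Insig1, itself a target of those factors, was lower (-0.52 ± 0.13), but lost its call without control 3 h replicate 1 or 3, control 6 h replicate 1 or 3 or interferon 3 h replicate 2 (adjusted p = 0.0505 to 0.153). Idi1, Acat2 and Insig1 were named after their values were seen, as was Fdps, the farnesyl diphosphate synthase, which did not pass (-0.25 ± 0.07 (SE; adjusted p = 0.0594)). The count lower was 6 without control 3 h replicate 2 or any 1 of the control 6 h arrays and 5 without control 3 h replicate 3.

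In fatty acid and triglyceride synthesis, 8 of 30 genes measured were called lower (26.7%), 2 higher (6.67%) and 20 in neither direction, with a median change of -0.17, which was -0.08 without replicate 2 in all groups. Pnpla3, a lipid droplet protein whose level follows feeding, had levels of 7.94, 7.47 and 9.90 at 3 h and 7.42, 5.96 and 8.56 at 6 h. Replicate 3 was highest at both times, and each pair fell, with a change of -1.12 ± 0.18 (SE; adjusted p = 0.00472). Gpam, which catalyses the entry step of glycerolipid synthesis, had levels of 8.75, 8.69 and 8.29 at 3 h and 8.21, 7.81 and 7.35 at 6 h, without overlap. Gpam changed by -0.79 ± 0.12 (SE; adjusted p = 0.00454). Fads1, a fatty acid desaturase, changed by -0.78 ± 0.10, and Cidec, a lipid droplet fusion protein, by -0.61 ± 0.07. Elovl6 and Fasn, which elongate and build saturated fatty acids, were among the 8 at -0.56 ± 0.12 and -0.50 ± 0.12, chosen after their values were seen. Elovl6 lost its call without control 3 h replicate 2 or 3 or control 6 h replicate 2 or 3 (adjusted p = 0.0548 to 0.0708), and Fasn without those or control 6 h replicate 1 (0.0665 to 0.127). Srebf1, the transcription factor that drives many of these genes, had a change of -0.36 ± 0.16 (SE; adjusted p = 0.236). The 2 called higher were Mlxipl, the carbohydrate-responsive factor ChREBP (0.66 ± 0.16), and Pnpla2, the triglyceride lipase of lipid droplets (0.61 ± 0.16). Mlxipl did not pass without control 3 h replicate 1 or 3 or control 6 h replicate 1 or 3 (adjusted p = 0.0874 to 0.144), and Pnpla2 without control 3 h replicate 1 or 2, control 6 h replicate 1 or 2, interferon 3 h replicate 1 or 2 or interferon 6 h replicate 1 (adjusted p = 0.0523 to 0.179). The count lower was 5 without control 3 h replicate 2 or 3 or control 6 h replicate 2 or 3.

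Of 34 genes of fatty acid oxidation and ketone synthesis, 6 were called lower (17.6%) and 1 higher, with a median change of -0.08. Cpt2, which completes the import of fatty acids into mitochondria, had levels of 10.51, 10.46 and 10.43 at 3 h and 10.10, 10.17 and 10.00 at 6 h, without overlap. Cpt2 changed by -0.38 ± 0.07 (SE; adjusted p = 0.00764). Acsl1, which activates long-chain fatty acids, had levels of 11.52, 11.51 and 11.74 at 3 h and 11.13, 11.15 and 11.15 at 6 h. Acsl1 changed by -0.45 ± 0.08 (SE; adjusted p = 0.00922). Of its 3 probe sets only this 1 was called, and their changes ran from -0.45 to 0.06. Bdh1, which makes the ketone body beta-hydroxybutyrate, changed by -0.56 ± 0.08. These 3 kept their call with any 1 array left out, while the count lower dropped to 3 without any 1 of the 6 control arrays. The gene called higher was Angptl4, a secreted inhibitor of lipoprotein lipase and a target of PPAR receptors, with a change of 0.64 ± 0.13 (SE; adjusted p = 0.015). Angptl4 did not pass without control 3 h replicate 2 or 3 or control 6 h replicate 1 or 3 (adjusted p = 0.0537 to 0.0659). Ppara, the receptor itself, had a change of 0.23 ± 0.17 (SE; adjusted p = 0.49) and was picked with its values known.

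A group of amino acid breakdown genes fell, and the urea cycle enzymes named here did not pass on their brightest probe sets. Of 40 genes measured, 13 were called lower (32.5%) and 0 higher, and 25 were lower at 6 h in all 3 pairs (62.5%, against 24.7% over all genes). Hgd, the homogentisate dioxygenase of tyrosine breakdown, had levels of 11.02, 10.19 and 10.46 at 3 h and 10.39, 9.37 and 9.50 at 6 h. The groups overlapped, replicate 1 being highest at 3 h, and the change was -0.80 ± 0.09 (SE; adjusted p = 0.00141). Gpt2, the mitochondrial alanine aminotransferase, had levels of 9.28, 8.56 and 7.70 at 3 h and 8.45, 7.77 and 6.85 at 6 h. Gpt2 changed by -0.82 ± 0.09 (SE; adjusted p = 0.000876). Bckdhb, a subunit of the dehydrogenase that breaks down branched-chain amino acids, had levels of 10.61, 10.47 and 10.44 at 3 h and 10.10, 10.02 and 9.78 at 6 h, without overlap. Bckdhb changed by -0.54 ± 0.08 (SE; adjusted p = 0.00396). Fah, which follows Hgd in tyrosine breakdown, changed by -0.48 ± 0.09, and Uroc1, of histidine breakdown, by -0.50 ± 0.08, both chosen after their values were seen. Urea cycle enzymes did not pass on their brightest probe sets: Cps1, the entry enzyme, had a change of 0.02 ± 0.07, Ass1 0.10 ± 0.07, Arg1 -0.09 ± 0.07 and Otc -0.26 ± 0.10, and Tat, the tyrosine aminotransferase upstream of Hgd, 0.13 ± 0.10, all chosen after their values were seen. With adjusted p of 0.127 for Otc and 0.478 to 0.904 for the others, these values do not show that the levels stayed the same. A second, dimmer probe set of Cps1 was called higher, with 0.36 ± 0.07 (SE; adjusted p = 0.0142). Left-out arrays reduced the count lower to 8, 7 and 5 for control 3 h replicates 1, 2 and 3 and to 6, 8 and 5 for control 6 h replicates 1, 2 and 3.

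Among 34 genes of methionine, folate and choline metabolism, 5 were lower (14.7%) and 1 higher. Cbs, which commits homocysteine to cysteine synthesis, had levels of 8.79, 10.05 and 8.58 at 3 h and 8.29, 9.61 and 7.81 at 6 h, highest in replicate 2. Cbs changed by -0.57 ± 0.08 (SE; adjusted p = 0.00351). The other genes called here were sensitive to single arrays, and the count lower was 1 without control 3 h replicate 3 or any 1 of the control 6 h arrays, 2 without control 3 h replicate 2 and 3 without control 3 h replicate 1. In glucose output and glycolysis, 4 of 31 genes were higher (12.9%) and 1 lower. Irs2, an adaptor of the insulin receptor, was 8.36, 8.19 and 8.21 at 3 h and 8.66, 8.51 and 8.68 at 6 h and changed by 0.36 ± 0.08 (SE; adjusted p = 0.0171), and Creb1, a transcription factor that acts on glucagon signals, by 0.49 ± 0.12. Irs2 did not pass without control 3 h replicate 1 or 3 or control 6 h replicate 2 or 3 (adjusted p = 0.0645 to 0.0781), nor Creb1 without control 3 h replicate 2 or 3 or control 6 h replicate 1 or 3 (adjusted p = 0.0561 to 0.125). Of the 4 probe sets of Creb1, 1 was called higher, and their changes ran from -0.0006 to 0.49. The count higher was 1 or 2 without any 1 of the 6 control arrays. Pck1, the gluconeogenic enzyme that responds to hormones within minutes, did not pass and moved in both directions, with levels of 10.11, 10.46 and 8.70 at 3 h and 10.26, 11.29 and 8.33 at 6 h.

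**Figure D3:**
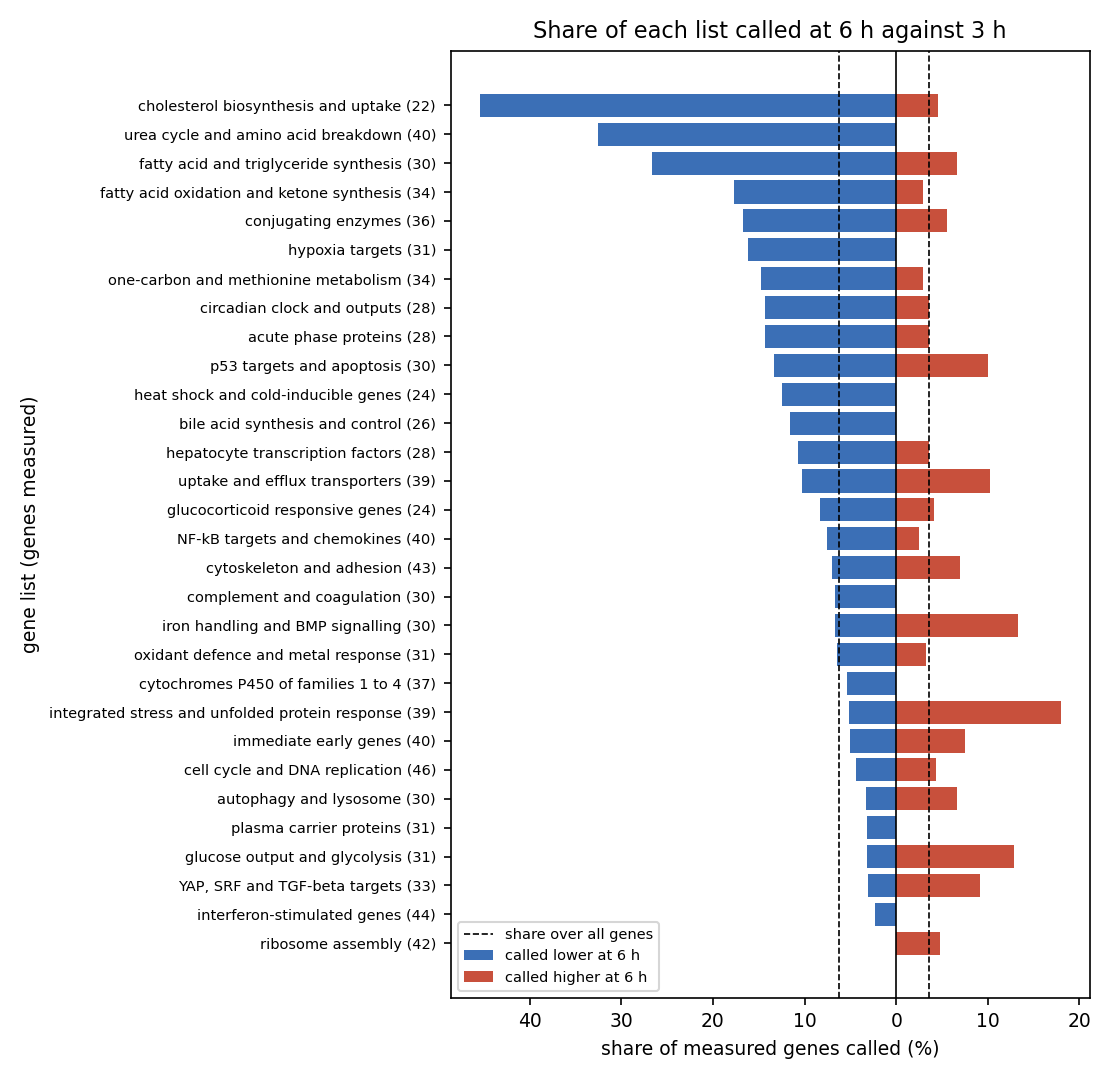
Share of the measured genes of each of 30 groups of hepatocyte functions (y axis, number measured in parentheses) called lower (blue, to the left) or higher (red, to the right) at 6 h, in percent (x axis). Dashed lines mark the shares over all genes, 6.22% lower and 3.57% higher; cholesterol synthesis (45.5% lower) and amino acid breakdown (32.5% lower) reach furthest left and the stress response group (17.9% higher) furthest right.

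Drug-metabolizing enzymes were divided by class. Of 37 cytochromes P450 of families 1 to 4, 2 were called lower (5.41%, near the 6.22% over all genes) and 0 higher. Cyp1a1, the main target of the aryl hydrocarbon receptor, had levels of 10.34, 9.28 and 9.26 at 3 h and 9.83, 7.93 and 8.42 at 6 h. Cyp1a1 changed by -0.90 ± 0.20 (SE; adjusted p = 0.019). Cyp1a1 did not pass without control 3 h replicate 2 or 3 or control 6 h replicate 2 or 3 (adjusted p = 0.0557 to 0.083). Cyp2e1, among the most abundant of these enzymes in liver, had levels of 13.90, 13.82 and 13.84 at 3 h and 13.87, 13.83 and 13.79 at 6 h. Cyp2e1 had a change of -0.02 ± 0.06 (SE; adjusted p = 0.885), chosen after its values were seen. Of 36 conjugating and related enzymes, 6 were lower (16.7%) and 2 higher (5.56%). Ephx2, the soluble epoxide hydrolase, had levels of 9.56, 9.35 and 9.82 at 3 h and 8.93, 8.79 and 8.99 at 6 h, without overlap. Ephx2 changed by -0.67 ± 0.08 (SE; adjusted p = 0.00147). Sult1c3, a sulfotransferase, had levels of 10.72, 9.93 and 9.64 at 3 h and 10.32, 9.36 and 8.97 at 6 h. Sult1c3 changed by -0.55 ± 0.09 (SE; adjusted p = 0.00459). Gstp1, a glutathione transferase that is low in adult hepatocytes and high in bile duct cells, went up in each pair, by 0.37 ± 0.07, and lost its call without control 6 h replicate 1 (adjusted p = 0.0544). The count lower in this group was 4 without control 3 h replicate 1 and 2 without control 3 h replicate 3 or control 6 h replicate 1 or 3.

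Transporters were called in both directions, the lower ones at a share near that of bright genes. Of 39 transporters measured, 4 were higher (10.3%, against 3.57% over all genes and 6.05% over bright ones). Lower were 4 (10.3%, against 6.22% and 9.76%). Abcc2, the canalicular exporter MRP2 of conjugated bilirubin and drugs, had levels of 10.87, 11.18 and 11.45 at 3 h and 11.63, 11.74 and 12.09 at 6 h. Every 6 h array was above every 3 h array, with a change of 0.65 ± 0.08 (SE; adjusted p = 0.00155). Abcb4, which moves phosphatidylcholine into bile, had levels of 9.50, 9.71 and 9.96 at 3 h and 10.22, 10.23 and 10.63 at 6 h, without overlap. Abcb4 changed by 0.64 ± 0.08 (SE; adjusted p = 0.00156). Slco1b2, the OATP importer of bilirubin, bile acids and drugs on the blood side, had levels of 10.21, 9.99 and 10.26 at 3 h and 9.56, 9.42 and 9.49 at 6 h, without overlap. Slco1b2 changed by -0.66 ± 0.08 (SE; adjusted p = 0.00151). Aqp8, a water channel of the canalicular membrane and mitochondria, had levels of 10.74, 10.74 and 10.38 at 3 h and 10.16, 10.32 and 9.59 at 6 h. Aqp8 changed by -0.60 ± 0.09 (SE; adjusted p = 0.00375), and Slc1a2, a glutamate importer, changed by -0.52 ± 0.08. The other probe set of Slc1a2 had a change of 0.12 and was not called. Slc7a2, an importer of arginine and lysine, was higher (0.48 ± 0.09) but did not pass without control 6 h replicate 1 (adjusted p = 0.052). The main bile acid carriers did not pass: Abcb11, the canalicular bile salt exporter, had a change of 0.13 ± 0.07 (SE; adjusted p = 0.353) and Slc10a1, the sodium-dependent importer, of -0.09 ± 0.10 (SE; adjusted p = 0.686), both chosen after their values were seen. The count of higher transporters was 2 without control 6 h replicate 1, and the count of lower ones stayed within 3 to 5 with any 1 array left out.

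Of secreted plasma proteins, few carrier genes (3.23%) and complement and coagulation genes (6.67%) passed the test, against 9.78% over all genes. Of the acute phase genes 17.9% passed, near the 15.8% of bright genes. Of 31 carriers and other plasma proteins, 1 was called lower (3.23%) and 0 higher, 16 were lower at 6 h in all 3 pairs (51.6%, against 24.7% over all genes), and the median change was -0.04. The 1 gene was Igfals, which carries insulin-like growth factors in a ternary complex, with levels of 8.34, 8.49 and 8.08 at 3 h and 7.83, 7.83 and 7.68 at 6 h, without overlap. Igfals changed by -0.52 ± 0.08 (SE; adjusted p = 0.00351). Alb, serum albumin, had levels of 14.69, 14.71 and 14.69 at 3 h and 14.63, 14.61 and 14.69 at 6 h. Alb had a change of -0.05 ± 0.06 (SE; adjusted p = 0.717), and Ttr, the thyroxine carrier transthyretin, of 0.01 ± 0.06 (SE; adjusted p = 0.967). Both are near the top of the array's range, and how far such bright probe sets could still respond was not tested. Of 30 complement and coagulation genes, 16 were lower in all 3 pairs (53.3%). Called lower were 2 (6.67%, near the 6.22% over all genes) and called higher 0. The 2 were Mbl1, a mannose-binding lectin (-0.37 ± 0.07), and C4bpb, a chain of the complement inhibitor C4b-binding protein (-0.35 ± 0.07). Mbl1 did not pass without control 3 h replicate 3 or control 6 h replicate 3 (adjusted p = 0.0589 to 0.06), nor C4bpb without control 3 h replicate 3 or control 6 h replicate 1 or 3 (adjusted p = 0.0664 to 0.0798). Of 28 acute phase genes, 4 were lower (14.3%, against 6.22% over all genes and 9.76% over bright ones) and 1 higher. The count lower was 2 without control 3 h replicate 2 or 3 or control 6 h replicate 2 or 3. Hamp, the iron hormone hepcidin, had levels of 13.19, 12.19 and 13.55 at 3 h and 13.02, 11.71 and 12.70 at 6 h. Hamp changed by -0.50 ± 0.12 (SE; adjusted p = 0.0242). Hamp did not pass without control 3 h replicate 2 or 3 or control 6 h replicate 2 or 3 (adjusted p = 0.0556 to 0.11).

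Hepcidin is controlled by bone morphogenetic proteins (BMPs). Of 30 genes of iron handling and BMP signalling, 4 were higher (13.3%) and 2 lower (6.67%). Bmpr2, the type II BMP receptor, had levels of 5.16, 5.05 and 5.11 at 3 h and 5.91, 5.60 and 6.05 at 6 h, without overlap. Bmpr2 changed by 0.75 ± 0.11 (SE; adjusted p = 0.0029). Its other probe set had a change of -0.01 and was not called. Smad1, which carries the signal to the nucleus, changed by 0.32 ± 0.07, and its partner Smad4, chosen after its values were seen, by 0.29 ± 0.07. The call of Smad4 was not checked with single arrays left out. Id2, a target of the pathway, was the other gene counted as higher, with 0.60 ± 0.13 (SE; adjusted p = 0.0199) on its brightest probe set, but its second probe set was called lower, with -0.61 ± 0.14 (SE; adjusted p = 0.0267), so no direction is given for Id2. The brightest Id2 probe set did not pass without control 3 h replicate 2 or 3 or control 6 h replicate 1 or 2 (adjusted p = 0.0784 to 0.092), nor Smad1 without control 3 h replicate 1 or 2 or control 6 h replicate 1, 2 or 3 (adjusted p = 0.0554 to 0.097). The count higher was 1 or 2 without any 1 of the 6 control arrays.

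Of 28 transcription factors that set hepatocyte identity, 1 was called higher (3.57%, against 3.57% over all genes) and 3 lower (10.7%, against 6.22% over all genes and 9.76% over bright ones), shares at or near the background. Foxa2, a pioneer factor of liver genes, had levels of 8.06, 8.53 and 7.38 at 3 h and 8.78, 8.84 and 8.79 at 6 h. Replicate 3 started lowest and rose most, all 3 arrays at 6 h were close to each other, and the change was 0.81 ± 0.16 (SE; adjusted p = 0.012). Foxa2 did not pass without control 6 h replicate 3 (adjusted p = 0.0559). Nr1h3, the oxysterol receptor LXR alpha, which in rodents drives Cyp7a1 and Srebf1, had levels of 9.49, 9.73 and 8.40 at 3 h and 8.74, 8.92 and 8.00 at 6 h. Nr1h3 changed by -0.65 ± 0.09 (SE; adjusted p = 0.00207). Hnf4a, the central regulator of hepatocyte genes, had levels of 11.42, 11.31 and 11.09 at 3 h and 11.31, 11.09 and 11.06 at 6 h. Hnf4a had a change of -0.12 ± 0.09 (SE; adjusted p = 0.51), and Cebpa, another, of 0.28 ± 0.10 (SE; adjusted p = 0.128) on its brightest probe set; both were chosen after their values were seen. Of the 5 probe sets of Cebpa 2 were called higher, with 0.54 ± 0.10 (SE; adjusted p = 0.00949) and 0.36 ± 0.09 (SE; adjusted p = 0.0359), and the changes of all 5 were above 0. The count lower was 1 without control 3 h replicate 1 or 3 or control 6 h replicate 1, and 2 without control 3 h replicate 2, control 6 h replicate 2 or 3 or interferon 3 h replicate 3.

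Of 28 genes of the circadian clock and its outputs, 4 were called lower (14.3%) and 1 higher (3.57%). Usp2, a deubiquitinase whose liver level follows the day, had levels of 9.46, 8.94 and 8.69 at 3 h and 8.23, 7.85 and 7.26 at 6 h. There was no overlap, the pair differences were close to each other, and the change of -1.25 ± 0.09 (SE; adjusted p = 0.000101) was a 2.37-fold fall. Hlf, a PAR-domain bZIP factor that relays the clock to drug metabolism, had levels of 8.22, 8.17 and 7.86 at 3 h and 7.55, 7.46 and 6.79 at 6 h, without overlap. Hlf changed by -0.82 ± 0.12 (SE; adjusted p = 0.0035). Its relative Tef changed by -0.36 ± 0.07 and did not pass without control 3 h replicate 2 or 3 or control 6 h replicate 1 (adjusted p = 0.0524 to 0.0666), while Dbp, the third of that family, had a change of 0.05 ± 0.12 (SE; adjusted p = 0.886). The gene called higher was Csnk1d, a kinase that acts on the PER proteins of the clock, with levels of 9.84, 9.94 and 10.18 at 3 h and 10.33, 10.25 and 10.49 at 6 h, without overlap. Csnk1d changed by 0.37 ± 0.08 (SE; adjusted p = 0.0137), did not pass without control 3 h replicate 1 or control 6 h replicate 1 (adjusted p = 0.0593 to 0.0762), and had changes of -0.26 to 0.40 over its 5 probe sets, 2 of them called higher. Nr1d1, the repressor REV-ERB alpha, had levels of 7.22, 6.58 and 7.57 at 3 h and 7.83, 8.18 and 7.70 at 6 h. Nr1d1 had a change of 0.78 ± 0.28 (SE; adjusted p = 0.125), Per1 of 0.30 ± 0.09 (SE; adjusted p = 0.0657) and Per2 of -0.06 ± 0.07 (SE; adjusted p = 0.697). Dbp, Nr1d1, Per1 and Per2 were chosen after their values were seen. The count lower was 2 without control 3 h replicate 2 or 3 or control 6 h replicate 1. The sources used here do not give the time of day of the harvests.

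Stress genes had the highest share of called rises among the 30 groups of hepatocyte functions. Of 39 genes of the integrated stress response and the unfolded protein response, 7 were called higher (17.9%) and 2 lower (5.13%). Among those higher were Atf4, which encodes the transcription factor ATF4, and Eif2ak3, which encodes PERK, a kinase that acts upstream of it. The activity of PERK was not tested. Ddit3, the transcription factor CHOP, had levels of 8.49, 8.02 and 8.88 at 3 h and 9.60, 8.62 and 9.83 at 6 h. Replicate 2 was lowest at both times, each pair rose, and the change was 0.88 ± 0.10 (SE; adjusted p = 0.000963). Chac1, an enzyme that breaks down glutathione and a target of ATF4, had levels of 8.20, 8.66 and 8.99 at 3 h and 9.91, 9.24 and 9.90 at 6 h, without overlap. Chac1 changed by 1.07 ± 0.22 (SE; adjusted p = 0.0139). Chac1 did not pass without control 3 h replicate 1 or control 6 h replicate 1 (adjusted p = 0.0619 to 0.0735). Ppp1r15a (GADD34), which ends the response by restoring translation, had levels of 9.15, 8.64 and 9.68 at 3 h and 10.01, 9.41 and 10.16 at 6 h. Ppp1r15a changed by 0.70 ± 0.11 (SE; adjusted p = 0.00405). Eif2ak3, which encodes PERK, had levels of 8.02, 8.39 and 8.85 at 3 h and 8.96, 8.85 and 9.33 at 6 h. Eif2ak3 changed by 0.62 ± 0.11 (SE; adjusted p = 0.00636). Trib3, a pseudokinase induced by CHOP, changed by 0.50 ± 0.11, Sesn2, a stress-induced inhibitor of mTORC1 signalling, by 0.48 ± 0.10 and Atf4 by 0.33 ± 0.08. Trib3 did not pass without control 3 h replicate 1 or 2 or control 6 h replicate 1 or 2 (adjusted p = 0.0617 to 0.104), Sesn2 without control 3 h replicate 1 or 3 or control 6 h replicate 1 or 3 (adjusted p = 0.061 to 0.0826) and Atf4 without control 3 h replicate 1, 2 or 3 or control 6 h replicate 1 or 2 (adjusted p = 0.0612 to 0.121). Among the 2 genes called lower was Psat1, a serine synthesis enzyme and itself a target of ATF4, with a change of -0.32 ± 0.08 (SE; adjusted p = 0.0286), and it did not pass without control 3 h replicate 1, 2 or 3 or control 6 h replicate 1, 2 or 3 (adjusted p = 0.0507 to 0.112). Further targets of ATF4 did not pass: Asns, the asparagine synthetase, had a change of 0.03 ± 0.08 (SE; adjusted p = 0.906), Atf3 of -0.47 ± 0.15 (SE; adjusted p = 0.0895) and Fgf21, a secreted hormone of the stressed liver, of 0.78 ± 0.25 (SE; adjusted p = 0.0832). Of the chaperone branch, Hspa5, the chaperone BiP, had a change of 0.05 ± 0.07 (SE; adjusted p = 0.761) and Xbp1 of 0.01 ± 0.08 (SE; adjusted p = 0.954), and Pdia4, a disulfide isomerase, was the other gene called lower (-0.33 ± 0.07). Pdia4 did not pass without control 3 h replicate 2 or 3 or control 6 h replicate 1, 2 or 3 (adjusted p = 0.0727 to 0.0981). Atf4, Trib3, Asns, Atf3, Fgf21, Hspa5 and Xbp1 were chosen after their values were seen. The count higher was 3 without control 3 h replicate 1 or control 6 h replicate 1.

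Promoters of 4 of the 7 stress genes called higher are shown because they carry, in capitals, letters known from stress-regulated promoters. Each is the stretch of 250 bases before the RefSeq start of the gene in rat assembly GRCr8, 5′ to 3′ on the strand of the gene. Chac1 (chr3:126795881-126796130, plus strand) and Trib3 (chr3:161275534-161275783, minus strand) hold the C/EBP-ATF composite motif TGATGNAA on the opposite strand, at 167 and 21 bases before the start. Ppp1r15a (chr1:105139597-105139846, minus strand) holds the part of the cyclic AMP response element TGACGT on both strands of an overlapping match at 66 and 64 bases before the start, and Ddit3 (chr7:65001445-65001694, plus strand) the AP-1 motif TGACTCA at 241 bases before it. Ppp1r15a holds TGACTCA too, across its start, so that its last letter lies past the stretch shown and it is not in capitals.
Chac1: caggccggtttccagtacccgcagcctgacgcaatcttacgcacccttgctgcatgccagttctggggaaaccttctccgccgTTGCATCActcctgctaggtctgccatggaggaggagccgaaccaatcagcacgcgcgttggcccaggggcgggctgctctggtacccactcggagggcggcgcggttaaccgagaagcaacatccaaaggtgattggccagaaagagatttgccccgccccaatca
Trib3: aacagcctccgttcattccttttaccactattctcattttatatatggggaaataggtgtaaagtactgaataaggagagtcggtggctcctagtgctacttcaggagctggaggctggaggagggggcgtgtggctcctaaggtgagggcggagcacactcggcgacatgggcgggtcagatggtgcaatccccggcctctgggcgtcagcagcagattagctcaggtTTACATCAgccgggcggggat
Ppp1r15a: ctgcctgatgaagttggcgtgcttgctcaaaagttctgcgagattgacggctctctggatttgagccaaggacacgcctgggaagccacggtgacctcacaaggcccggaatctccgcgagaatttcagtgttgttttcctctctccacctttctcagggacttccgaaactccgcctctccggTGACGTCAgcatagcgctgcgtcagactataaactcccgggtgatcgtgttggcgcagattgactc
Ddit3: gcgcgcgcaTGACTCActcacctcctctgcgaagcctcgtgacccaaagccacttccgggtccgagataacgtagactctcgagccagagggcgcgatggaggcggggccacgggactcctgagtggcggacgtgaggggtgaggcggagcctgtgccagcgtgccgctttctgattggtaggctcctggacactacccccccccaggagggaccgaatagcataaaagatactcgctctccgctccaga
The search covered both strands from 250 bases before to 50 after the start. The composite motif was found in the promoters of 2 of the 7 stress genes called higher (28.6%), of 6 of the 34 of the whole group with a promoter sequence (17.6%) and of 2.21% of 11733 measured genes with one. Over all 429 genes called higher with a promoter sequence it was present in 1.86%. TGACGT was present in 16.8% of those 429 promoters, in 9.03% of the 753 of genes called lower and in 10.6% of the measured genes. The E-box CACGTG, bound by clock factors, was present in 8.86%, 9.16% and 8.92% of the same sets, and TGACTCA in 4.43%, 4.12% and 3.8%. The sterol response letters TCACNCCAC were found in 0 of the 18 promoters of the cholesterol group and in 1.12% of the measured genes. These shares describe letters in a window, and the base composition of the promoters was not taken into account.

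Other stress routes were counted in the same way. Of 24 heat shock and cold-inducible genes, 3 were lower (12.5%) and 0 higher. Hspa4, a co-chaperone of the HSP70 system, had levels of 7.45, 8.14 and 7.27 at 3 h and 6.55, 7.18 and 6.26 at 6 h, without overlap. Hspa4 changed by -0.95 ± 0.09 (SE; adjusted p = 0.000776). Hsph1, its relative, changed by -0.41 ± 0.08 and Chordc1, a partner of HSP90, by -0.57 ± 0.11. Without control 3 h replicate 1 or control 6 h replicate 1 both lost their call (adjusted p = 0.0531 and 0.0593 for Hsph1, 0.0648 and 0.0722 for Chordc1), and the count was 1. Hspa1a, the inducible HSP70, had a change of -0.07 ± 0.12 (SE; adjusted p = 0.831) and was picked with its values known. Of 31 hypoxia genes, 5 were lower (16.1%) and 0 higher. Among them was Epas1, which encodes the hypoxia-inducible transcription factor HIF-2 alpha. Epas1 had levels of 11.30, 11.18 and 11.14 at 3 h and 10.96, 10.65 and 10.66 at 6 h, without overlap. Epas1 changed by -0.45 ± 0.08 (SE; adjusted p = 0.00592). Its other probe set had a change of 0.04 and was not called. Hif1a changed by -0.39 ± 0.09 and did not pass without control 3 h replicate 1, 2 or 3 or control 6 h replicate 1 (adjusted p = 0.0561 to 0.109). The hypoxia count was 1 to 3 without any 1 of the 6 control or 3 interferon 3 h arrays. Of 31 genes of oxidant defence and metal handling, 1 was higher (3.23%) and 2 lower (6.45%), near the 3.57% and 6.22% over all genes. Akr7a3, an aldehyde reductase, changed by 0.48 ± 0.09 (SE; adjusted p = 0.00776), and Slc30a10, a manganese exporter, by -0.65 ± 0.09 (SE; adjusted p = 0.0021). Of 30 p53 targets and apoptosis genes, 3 were higher (10.0%) and 4 lower (13.3%). Mdm2, the ubiquitin ligase of p53 and its target, had levels of 10.93, 10.41 and 11.01 at 3 h and 10.53, 9.83 and 10.34 at 6 h. Mdm2 changed by -0.55 ± 0.07 (SE; adjusted p = 0.00225). The count lower was 1 without control 3 h replicate 2 and 2 without control 6 h replicate 2 or 3, and the count higher was 0 to 2 without any 1 of the 6 control arrays.

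Immediate early genes respond to plating, handling and growth factors within minutes. Of 40 measured, 3 were higher (7.5%, against 3.57% over all genes and 6.05% over bright ones). Lower were 2 (5%, against 6.22% and 9.76%). The higher share was thus near that of bright genes, and the lower share was below both backgrounds. Ier2 had levels of 7.97, 7.67 and 8.01 at 3 h and 9.06, 8.25 and 8.80 at 6 h, without overlap. Ier2 changed by 0.82 ± 0.09 (SE; adjusted p = 0.0012). Junb, an AP-1 subunit, had levels of 7.76, 7.19 and 7.72 at 3 h and 8.33, 8.04 and 8.06 at 6 h. Junb changed by 0.59 ± 0.11 (SE; adjusted p = 0.0086), while Jund, another subunit, had levels of 11.04, 11.08 and 11.13 at 3 h and 10.64, 10.47 and 10.57 at 6 h. Jund changed by -0.53 ± 0.08 (SE; adjusted p = 0.00353). Junb and Jund thus moved in opposite directions with no overlap in either. Of the 3 probe sets of Jund 1 was called, and their changes ran from -0.53 to -0.04. Fos and Egr1, the best known members, had changes of -0.14 ± 0.10 (SE; adjusted p = 0.471) and -0.22 ± 0.15 (SE; adjusted p = 0.475), Jun of 0.03 ± 0.13 (SE; adjusted p = 0.937) and Myc of 0.12 ± 0.08 (SE; adjusted p = 0.48), all 4 chosen after their values were seen. The count higher was 2 without control 3 h replicate 2 or control 6 h replicate 1 or 2.

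Of 40 NF-kB targets and chemokines, 1 was higher (2.5%) and 3 lower (7.5%). Nfkbiz, a nuclear IkB protein of the interleukin 1 response, had levels of 8.61, 7.23 and 5.87 at 3 h and 7.90, 6.81 and 5.03 at 6 h, far apart between replicates. Nfkbiz changed by -0.65 ± 0.10 (SE; adjusted p = 0.00405). Its other probe set had a change of 0.10 and was not called. Of 30 genes of autophagy and lysosome, 2 were higher (6.67%) and 1 lower (3.33%), the latter Atp6v1h, a subunit of the proton pump of lysosomes, with levels of 10.36, 10.29 and 10.51 at 3 h and 9.69, 9.65 and 9.90 at 6 h, without overlap. Atp6v1h changed by -0.64 ± 0.07 (SE; adjusted p = 0.00134). Of 46 genes of cell cycle and DNA replication, 2 were higher (4.35%) and 2 lower (4.35%), and Ccng2, a cyclin of arrested cells, changed by 0.57 ± 0.11. Ccng2 did not pass without control 3 h replicate 1 or control 6 h replicate 1 (adjusted p = 0.0534 to 0.0645). Of 33 targets of YAP, SRF and TGF-beta, 3 were higher (9.09%) and 1 lower (3.03%), against 3.57% and 6.22% over all genes. Of 43 genes of cytoskeleton and adhesion, 3 were higher (6.98%) and 3 lower (6.98%), against 6.05% and 9.76% over bright genes. In both groups the counts of 3 dropped to 0 to 2 without any 1 of the 6 control arrays, and so did that of lower cytoskeleton genes (2 without interferon 3 h replicate 1). Of 42 genes of ribosome assembly, 2 were higher (4.76%) and 0 lower, and of 24 genes responsive to glucocorticoids, 1 was higher (4.17%) and 2 lower (8.33%).

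Markers of other cells mostly did not pass. C1qc, a complement gene of macrophages, had levels of 7.34, 5.30 and 5.55 at 3 h and 6.74, 4.87 and 4.97 at 6 h, highest in replicate 1. C1qc changed by -0.53 ± 0.10 (SE; adjusted p = 0.00895), the only 1 of 18 Kupffer cell markers called. Anxa4, an annexin of bile duct cells, had levels of 9.07, 9.06 and 8.35 at 3 h and 8.56, 8.58 and 7.78 at 6 h. Anxa4 changed by -0.52 ± 0.07 (SE; adjusted p = 0.00207), the only 1 of 14 cholangiocyte markers called. Gzmb, a granzyme of cytotoxic lymphocytes, was near the lowest levels of the array at 3.62, 3.56 and 3.61 at 3 h and 3.99, 3.82 and 3.82 at 6 h, with a change of 0.28 ± 0.07. Gzmb did not pass without control 3 h replicate 1, 2 or 3, control 6 h replicate 1, 2 or 3, interferon 3 h replicate 3 or interferon 6 h replicate 2 or 3 (adjusted p = 0.0506 to 0.185). Lcn2, a gene of neutrophils that hepatocytes also make in inflammation, had levels of 13.51, 8.08 and 7.87 at 3 h and 13.57, 7.82 and 7.58 at 6 h, high in replicate 1 alone at both times. Lcn2 had a change of -0.16 ± 0.10 (SE; adjusted p = 0.401). The part of such cells in the results for hepatocyte genes was not tested.

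Most genes that respond to interferon had a change below 0 without interferon, and nearly all of these did not pass. Of 44 interferon-stimulated genes measured, 40 had a change below 0 (90.9%, against 50.4% over all genes), 28 were lower at 6 h in all 3 pairs (63.6%, against 24.7% over all genes) and 0 were higher in all 3 (20.3% over all genes). Their median change was -0.25. With interferon, 16 of the 44 were called higher over the same interval (5.74% over all genes). Only Irgm2, an immunity-related GTPase, passed, with levels of 10.99, 10.19 and 10.58 at 3 h and 10.08, 9.63 and 9.11 at 6 h, without overlap. Irgm2 changed by -0.98 ± 0.24 (SE; adjusted p = 0.0327), and it did not pass without control 3 h replicate 1 or 3 or control 6 h replicate 2 or 3 (adjusted p = 0.0951 to 0.143). Irgm and Igtp, of the same family and chosen after their values were seen, had changes of -0.74 ± 0.25 (SE; adjusted p = 0.104) and -0.83 ± 0.32 (SE; adjusted p = 0.147). In the fit, the SE of these genes includes their spread in the interferon-treated arrays: the median SE was 0.244, against 0.092 over all genes. With only the 6 control arrays, 8 of the 44 were called lower (18.2%, against 2.78% over all genes in that fit). Isg15, a ubiquitin-like protein of the response, had levels of 11.76, 10.71 and 10.90 at 3 h and 11.60, 10.61 and 10.66 at 6 h. Isg15 had a change of -0.16 ± 0.32 (SE; adjusted p = 0.839), and Mx1, an antiviral GTPase, had levels of 4.57, 3.74 and 3.71 at 3 h and 4.07, 4.36 and 3.62 at 6 h, near the lowest of the array; both were chosen after their values were seen.

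**Figure D4:**
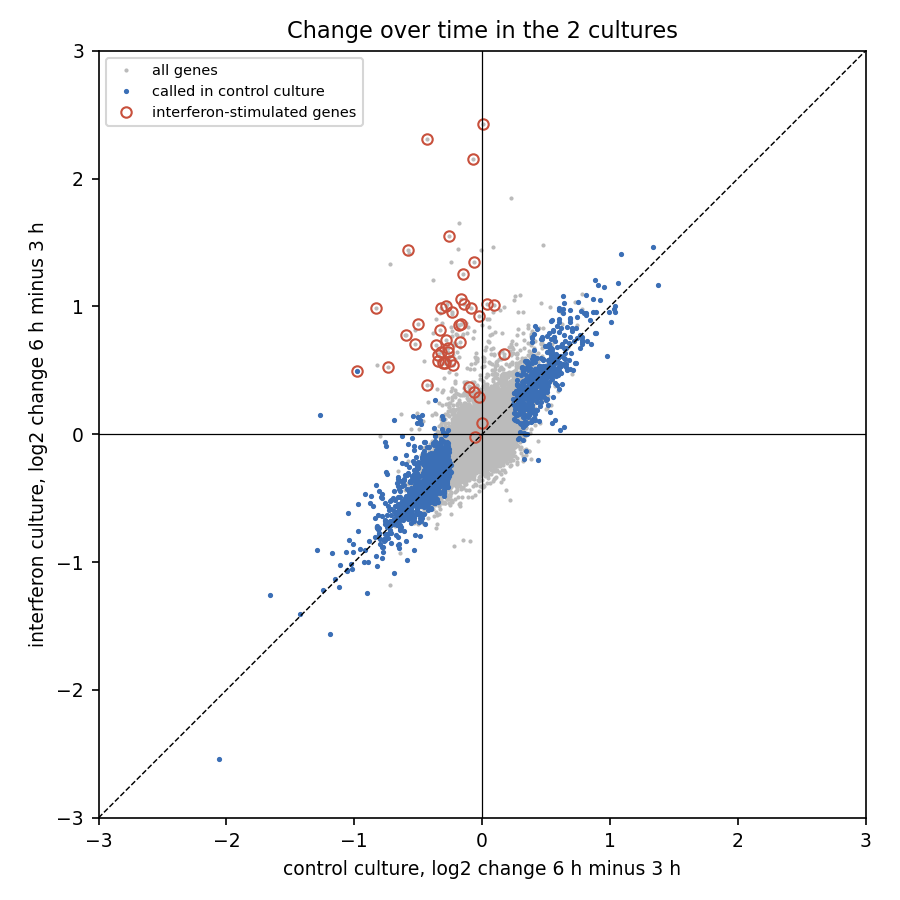
Log2 change from 3 h to 6 h in interferon-treated culture (y axis) against that in untreated culture (x axis), for 14217 genes (grey), genes called in untreated culture (blue) and 44 interferon-stimulated genes (red circles), with the line of equal change dashed. Blue points lie along the dashed line, and the red circles lie above it, with median changes of -0.25 in untreated and 0.76 in interferon-treated culture.

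The same interval in interferon-treated culture shares no array with the untreated one, but both come from 1 fit with 1 residual spread, and pair differences of the same number correlated at 0.528 to 0.601 between the cultures across 31042 probe sets, which are not independent, against 0.318 to 0.437 for other numbers. There, 3005 probe sets were called (9.68%), 1485 higher (4.78%) and 1520 lower (4.9%). Of the 1033 probe sets called higher without interferon, 940 (91.0%) were also higher at 6 h in all 3 pairs with it, against 19.8% of all probe sets, and of the 1496 called lower, 1364 (91.2%) were lower in all 3, against 19.9%. Called in both and in the same direction were 1689, which is 66.8% of the calls without and 56.2% of those with interferon, and 1 unnamed probe set was called in opposite directions. A test of the difference between the 2 changes passed for 0 probe sets (limma with the replicate block; 1466 at an unadjusted p under 0.05, 4.72%). With no replicate block it passed for 0 as well, and for 1 without interferon 6 h replicate 1 or 2. A count of 0 does not show that the changes were equal. Among members of the groups described, Cyp7a1 changed by -2.54 with interferon, Egfr by 1.00, Mvd by -0.78, Hgd by -0.86, Usp2 by -1.22, Abcc2 by 0.64 and Ddit3 by 1.21. Herc3, which fell by 1.27 without interferon, had a change of 0.15 with it, and the difference between the changes was 1.43 ± 0.24 (SE; adjusted p = 0.462). Klf4, a zinc finger factor among the immediate early genes, had changes of -0.47 ± 0.10 without and 0.15 with interferon, and the difference of 0.62 ± 0.14 did not pass either (adjusted p = 0.538). Klf4 in untreated culture lost its call without control 3 h replicate 1 or 3 or control 6 h replicate 1 (adjusted p = 0.0562 to 0.0797).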

How the data were processed

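Per the labels' protocols, total RNA was extracted with Trizol, cleaned on RNeasy columns and turned into biotinylated cRNA from 5 µg for Affymetrix arrays. Per the submitters' processing notes, the authors used affy in R 2.10.0 and RMA to make the deposited log2 values. RMA gives all arrays one distribution, which hides any change common to most transcripts; the sources used here do not name the probe set definition file. The 57 control probe sets were left out. Of 31042 tested probe sets, 20826 had 1 symbol in the platform annotation, 436 several and 9780 none listed; 20758 were matched by Entrez identifier to RefSeq (GRCr8), with 0 symbols changed. Probe sets without exactly 1 symbol are not named.

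limma 3.58.1 in R 4.3.3 (lmFit, eBayes; two-sided) was used to test changes, with 4 groups and the replicate number as a block over all 12 arrays (6 residual degrees of freedom), adjusted by Benjamini-Hochberg over all 31042 probe sets and called under 0.05. The labels call the replicates biological but do not say what a number shares. Same-number arrays were taken as pairs by the rule set for this comparison. Deviations from group means correlated at 0.479 to 0.829 in all 18 same-number pairs of arrays of different groups. In the other pairs the correlations were -0.562 to -0.0747. Deviations within a group sum to 0, so positive same-number values push the others below 0, and these add no separate evidence. Arrays number 3 per group, which limits the precision, and 0 pairs of arrays held identical values.

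Genes were named by a rule: the 15 largest called rises and falls moving the same way in all 3 pairs, and up to 3 called members of lowest p per list and direction, or else the brightest member. Others are said to be chosen after their values were seen. Members and lists were chosen with earlier results of these data known. Alternatives were the fit without the block, on the 6 control arrays, with other scaling, variance models or filters, and without single arrays; 2 of the promoter motifs were added after seeing the data. The fit was tested on simulated data.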

Additional observations from a re-analysis of the deposited data

Results flagged for a closer look

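The interferon-stimulated genes were singled out because the median of the list was below 0 in each untreated pair and above 0 in each interferon-treated pair. The list was made of genes known to respond to interferon, so the rise with interferon is partly set by its choice. Their median change from 3 h to 6 h was -0.25 in untreated culture and 0.76 with interferon alpha over 44 genes. This difference between list medians was not tested. Irgm2, an immunity-related GTPase, showed the same at the level of a single gene, with a change of -0.98 in untreated and 0.49 in interferon-treated culture, all 3 pairs in opposite directions. The test of the difference did not pass for Irgm2 (limma, adjusted p = 0.559).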

How the results depend on the processing

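Without the pairing (no replicate block), calls in untreated culture dropped from 2529 to 59 (28 higher, 31 lower) and in interferon-treated culture from 3005 to 120. With the 6 control arrays alone, 1109 were called (400 higher, 709 lower), of which 1054 were among the 2529. Leaving out 1 array gave 920 to 2573 calls in untreated culture (321 to 1047 higher, 599 to 1526 lower), 1467 to 3029 with interferon and 0 to 1 for the difference between the cultures. Without replicate 1, 2 or 3 in all groups, untreated culture had 660, 581 or 497 calls (201, 314 or 195 higher, 459, 267 or 302 lower) and interferon-treated culture 1609, 711 or 699, and the difference had 18 without replicate 1. The fits with fewer arrays have fewer residual degrees of freedom, and the cause of the other shifts was not tested. Scaling, limma-trend, robust variances and the filter on dim probe sets gave 2410 to 3196 calls. No direction of the 2529 turned under any of these. All 2529 moved one way in all 3 pairs, and several of these fits share the same estimate, so few of them could turn a direction. The lack of turns therefore says little about the calls, and the same holds for the named changes that follow. Of 198 named genes and probe sets, 141 by the rule, no called change reversed under an alternative that was run, and 830 values under an alternative missed a threshold passed in the fit reported. Smad4 was not among the 198. The list medians printed in the report kept their sign with probe sets averaged per gene and without replicate 1, 2 or 3 in all groups, while other lists with medians near 0 did not all keep theirs. With 3 arrays per group, changes smaller than 0.24 log2 were not called, and the signal over background of single probe sets is not given in RMA values.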

Other observations

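The probe set with the largest change of all those called in untreated culture was a dimmer probe set of Cct6a, a subunit of the chaperonin that folds actin and tubulin, and it lies outside the naming rule. Its levels were 7.58, 7.27 and 7.08 at 3 h and 9.64, 9.69 and 9.94 at 6 h, without overlap, with a change of 2.45 ± 0.14 (SE; adjusted p = 2.51e-05), and 2.50 in interferon-treated culture. It was 1 of the 59 probe sets called with no replicate block (adjusted p = 6.93e-05). The brightest probe set of Cct6a had a change of -0.13 (adjusted p = 0.359).

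Cirbp, the cold-inducible RNA-binding protein, rose on its 2 dimmer probe sets, with levels of 5.76, 5.23 and 5.45 at 3 h and 7.01, 6.26 and 6.67 at 6 h on the first and 6.79, 6.02 and 5.98 at 3 h and 8.08, 7.05 and 7.46 at 6 h on the other. Each 6 h array was above its 3 h partner by more than 1 log2 unit, with changes of 1.17 ± 0.09 (SE; adjusted p = 0.000222) and 1.27 ± 0.10 (SE; adjusted p = 0.00022). The brightest probe set had a change of 0.12 (adjusted p = 0.450). Both genes were chosen after their values were seen, and the files do not say which transcripts of a gene a probe set covers.

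Probe sets of a gene often differed in their call. Of 829 further probe sets of genes called on their brightest probe set, 198 were called in the same direction, 7 in the opposite direction and 624 were not called, and 10 genes were called in both directions on different probe sets. Of the 54 probe sets called with a change of 2-fold or more, 28 were the brightest of a named gene, 8 were another probe set of one and 18 were unnamed.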
